A study of Mus musculus with 18 samples.

Results

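The genes described here were 7 genes of the handling of zinc and related metals. They were the metallothioneins Mt1 and Mt2, the importers Slc39a14 and Slc39a4, the exporters Slc30a1 and Slc30a10, and the transcription factor Mtf1. The 7 were taken by name from a table of 37315 genes, but with earlier results of these data known. Shares of members called are therefore not those of a blind choice. All 7 were among the 16213 genes with enough counts to be tested. Polyadenylated RNA of liver from C57BL/6J mice, with no other genotype labelled, was sequenced in 18 libraries, which made 6 groups of 3. Mice aged 2, 8 or 16 weeks received intraperitoneal asparaginase (Elspar, the leukaemia drug that strips asparagine from the blood) at 3 IU per g of body weight, or PBS, once a day. Mice of 8 weeks had 8 doses and the other ages 7, and livers were taken 7.5 h after the last one. Each group was labelled as a mix of sexes, either 2 females and 1 male or the reverse. The replicate numbers used below are names only and link no mice across groups.

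Metallothioneins are small cysteine-rich proteins of the cytosol that bind zinc, copper and cadmium, and their transcripts are among the most inducible in the liver. Zinc importers of the ZIP family (Slc39a genes) bring zinc into the cytosol and exporters of the ZnT family (Slc30a genes) carry it out of the cell or into vesicles. When free zinc rises, MTF1 binds short DNA motifs called metal response elements and switches on metallothioneins and Slc30a1; glucocorticoids and the inflammatory cytokine IL-6 also induce metallothioneins in liver, and IL-6 induces Slc39a14. Slc39a14 and Slc30a10 also move manganese, and Slc39a4 is best known as the zinc importer of the gut.

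Library totals ran from 24690871 to 46949361 counts. Asns, the asparagine synthetase gene that rises when asparagine runs out, lay at 0.555 to 3.94 CPM (counts scaled to a common library size, with edgeR's TMM factors) in the 9 PBS libraries and at 4.15 to 30.7 CPM in the 9 asparaginase libraries, without overlap. Xist and Y-linked transcripts matched the labelled sex in 15 of 18 libraries; 2-week PBS 1 and 2 and 2-week asparaginase 3 held both, although each is labelled with 1 sex. Hepatocyte markers summed to between 58600 and 102000 CPM in every library. Markers of squamous epithelium summed to 829 and 436 CPM in 8-week asparaginase 1 and 2 and to at most 71.3 CPM in the other libraries, so these libraries stood apart. Pancreatic acinar markers reached 1040 CPM at 2 weeks and 2330 CPM at 16 weeks, and skeletal muscle markers reached 2460 CPM in 8-week asparaginase 1. Major urinary protein genes took 0.046 to 0.579% of all counts at 2 weeks and 5.39 to 47.9% in adults. On scaling by library totals alone, the median log2 difference of all genes from 2-week controls was -0.72 at 8 weeks and -0.80 at 16 weeks. In whole liver, fewer cells of a type and less RNA per cell cannot be told apart.

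Mt1 (ENSMUSG00000031765, GRCm38 chromosome 8, 94179082 to 94180327) and Mt2 (ENSMUSG00000031762, chromosome 8, 94172664 to 94173568) are neighbours on the plus strand. Slc39a14 (ENSMUSG00000022094) lies on chromosome 14 (70303469 to 70351425, minus strand) and Slc39a4 (ENSMUSG00000063354) on chromosome 15 (76612383 to 76617384, minus strand). Slc30a1 (ENSMUSG00000037434, 191906767 to 191913247) and Slc30a10 (ENSMUSG00000026614, 185454848 to 185468762) both lie on chromosome 1, and Mtf1 (ENSMUSG00000028890) on chromosome 4 (124802104 to 124849800), all on the plus strand. Exons of 4 of these genes overlap exons of an antisense neighbour: 432 bp of Mt2 (Gm45774), 468 bp of Slc30a1 (1700034H15Rik), 533 bp of Slc30a10 (Gm2061) and 721 bp of Mtf1 (1110065P20Rik). The use of strand in counting is not given in the sources used here, so reads of the partners cannot be told apart there.

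The promoters of both metallothioneins and of Slc30a1 are shown because these are the classical MTF1 targets and their levels are set side by side below. Of the 7 members 5 matched a window by symbol (all but Slc39a14 and Slc39a4). Each is the RefSeq window (GRCm38.p6, plus strand) from 250 bases before to 50 bases after the RefSeq start, in lower case. The RefSeq starts are not all the gene starts printed above. The Mt2 window ends at 94172667, close to the printed start of 94172664. The Mtf1 window (124802299 to 124802598) lies wholly inside the gene as printed, which starts at 124802104. Capitals mark the core of the metal response element, searched as TGCACNC or TGCGCNC on both strands.
Mt1, chr8:94178839-94179138: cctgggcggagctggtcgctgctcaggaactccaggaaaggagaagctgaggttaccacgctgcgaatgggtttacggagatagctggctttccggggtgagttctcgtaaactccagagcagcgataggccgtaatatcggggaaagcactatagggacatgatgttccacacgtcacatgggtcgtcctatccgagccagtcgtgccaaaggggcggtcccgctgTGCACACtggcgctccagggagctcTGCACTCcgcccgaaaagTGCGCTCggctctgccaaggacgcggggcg
Mt2, chr8:94172368-94172667: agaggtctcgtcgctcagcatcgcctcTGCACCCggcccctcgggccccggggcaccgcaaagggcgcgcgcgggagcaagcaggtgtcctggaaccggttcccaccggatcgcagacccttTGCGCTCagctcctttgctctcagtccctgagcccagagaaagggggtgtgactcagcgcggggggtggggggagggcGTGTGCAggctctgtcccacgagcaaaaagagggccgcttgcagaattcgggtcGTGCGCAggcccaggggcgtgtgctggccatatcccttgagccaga
Slc30a1, chr1:191906531-191906830: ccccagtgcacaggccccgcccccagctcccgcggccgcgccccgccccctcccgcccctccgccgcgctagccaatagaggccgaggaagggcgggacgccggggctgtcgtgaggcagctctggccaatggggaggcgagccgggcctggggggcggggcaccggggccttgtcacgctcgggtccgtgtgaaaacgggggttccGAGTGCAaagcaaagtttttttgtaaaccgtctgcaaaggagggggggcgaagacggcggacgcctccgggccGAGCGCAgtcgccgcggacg
The Mt1 window held 3 matches, all on the plus strand, and the Mt2 window held 4, as plus-strand and minus-strand pairs. The Mt1 matches lay at bases -23 to -17, 2 to 8 and 20 to 26 from the RefSeq start, so most were past it. Bases beyond the end of each window were not searched. The counts of all motifs here therefore cover the windows only, not whole promoters. The Slc30a1 window held 2, both on the minus strand. The Slc30a10 window held 3, of which 2 overlap each other on opposite strands. The Mtf1 window, which does not reach the printed gene start, held 0. Of 32851 promoter windows of the same length, 25.7% held at least 1 match, 7.11% at least 2, 1.97% at least 3 and 0.517% at least 4. The core of the antioxidant response element, searched as TGACNNNGC, occurred once in the Mt2 window and once in the Slc30a1 window and in 12.4% of all windows. The composite motif bound by ATF4, searched as TGATGNAA, was in 3.97% of all windows and in 0 of the 5 member windows. A match is a run of letters, not a measured binding site.

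Per kb of the principal transcript, Mt1 was the most abundant of the 7 in PBS livers at every age and Mtf1 the least. At 2 weeks the mean level was 244 ± 133 CPM per kb (SD, n = 3) for Mt1, 98.4 ± 61.2 for Mt2, 43.7 ± 5.54 for Slc39a14, 15.4 ± 1.59 for Slc39a4, 4.80 ± 0.402 for Slc30a1, 2.94 ± 1.03 for Slc30a10 and 1.55 ± 0.169 for Mtf1. At 8 weeks the order was Mt1 (48.3 ± 30.4 CPM per kb), Slc39a14 (29.3 ± 4.41), Slc39a4 (18.3 ± 1.46), Mt2 (14.9 ± 13.1), Slc30a1 (4.71 ± 0.57), Slc30a10 (4.55 ± 0.815) and Mtf1 (1.98 ± 0.542). At 16 weeks it was Mt1 (68.6 ± 50.8), Slc39a14 (40.8 ± 3.79), Mt2 (29.6 ± 25.3), Slc39a4 (9.91 ± 1.63), Slc30a1 (6.48 ± 0.754), Slc30a10 (2.93 ± 0.79) and Mtf1 (2.14 ± 0.179). Neighbours in this order whose ranges of mean ± SD overlapped were Mt1 with Mt2 and Mt2 with Slc39a14 at 2 weeks. At 8 weeks they were Mt1 with Slc39a14, Mt2 with Slc39a4 and with Slc30a1, and Slc30a1 with Slc30a10. At 16 weeks they were Mt1 with Slc39a14, Mt2 with Slc39a14 and with Slc39a4, and Slc30a10 with Mtf1. Of the importers Slc39a14 and Slc39a4, the former was higher per kb of the principal transcript (4926 and 2750 bp) at each age. All annotated exons together span 10550 and 3106 bp for these genes. Levels per that length were not computed, and the order of members may change with the length used.

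Both metallothionein transcripts were higher in asparaginase-treated livers at 8 weeks, whereas at 2 weeks treated and control livers overlapped. The levels of Mt1 at 8 weeks were 45.5, 14.0 and 19.98 CPM in PBS livers, against 487, 68.8 and 60.6 CPM in asparaginase livers (replicates 1, 2 and 3). The lowest treated liver was above the highest control liver, and 1 treated liver stood far above the other two. Mt1 rose by a log2 fold change of 3.07 (SE 0.54, adjusted p = 0.0398, edgeR quasi-likelihood test). The liver at 487 CPM also held 829 CPM of squamous and 2460 CPM of skeletal muscle markers. It had the lowest Asns level of all treated livers, at 4.15 CPM. Asns lay at 7.95 and 14.2 CPM in 8-week asparaginase 2 and 3 and at 3.94 CPM in 8-week PBS 2. Without the liver at 487 CPM the log2 difference of Mt1 was 2.21 (adjusted p = 0.862), in a fit that called 0 of 16476 genes at 8 weeks. The Mt1 call was lost in 13 of the 18 fits that left out 1 library. Mt2 at 8 weeks measured 15.3, 3.08 and 4.47 CPM with PBS, against 199.9, 31.7 and 14.5 CPM with asparaginase. Its groups overlapped by a small margin, since the lowest treated liver (a male) lay just below the highest control (a female). Mt2 rose by a log2 fold change of 3.70 (SE 0.67, adjusted p = 0.0411). These were 2 of 7 members called at 8 weeks, where 0.364% of the 16213 tested genes were called (0.191% as higher). All p-values measure the spread between these libraries; the labels do not tell how each was drawn from the mice, beyond 3 mice per group.

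At 16 weeks the difference had the same sign and did not pass the test across all genes. Mt1 measured 66.6, 35.3 and 11.0 CPM in PBS livers, against 64.9, 65.3 and 97.2 CPM in asparaginase livers. The groups overlapped only through the first PBS liver, which lay above 2 treated livers. The log2 difference was 1.73 (SE 0.60, adjusted p = 0.295, unadjusted 0.0132). Mt2 measured 28.8, 13.4 and 3.08 CPM with PBS, against 17.8, 30.5 and 46.0 CPM with asparaginase, with a log2 difference of 1.97 (SE 0.72, adjusted p = 0.325, unadjusted 0.0168). Here 0 of 7 members were called, where 0.234% of all tested genes were.

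At 2 weeks Mt1 measured 217, 83.0 and 101 CPM with PBS, against 128, 155 and 259 CPM with asparaginase. Mt2 measured 85.0, 24.4 and 41.5 CPM with PBS, against 63.3, 89.3 and 105 CPM with asparaginase. The first PBS liver lay within the treated range for both genes. For every member at 2 weeks the fit took sex from the labels. However, PBS 1 and 2 and asparaginase 3 of that age held both Xist and Y-linked transcripts. The log2 differences were 0.40 (SE 0.58, adjusted p = 0.867) for Mt1 and 0.72 (SE 0.66, adjusted p = 0.749) for Mt2, and 0 of 7 members were called where 0.432% of all genes were. Whether the effect differed between the 3 ages was tested jointly: the adjusted p was 0.417 for Mt1 (unadjusted 0.0145) and 0.437 for Mt2 (unadjusted 0.0199). The larger difference at 8 weeks was therefore not shown to differ from that at the other ages. That joint test called 0 of 16213 genes with edgeR (1529 at an unadjusted p under 0.05), against 155 with DESeq2 and 1 with limma-voom, none of them a member.

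**Figure D1:**
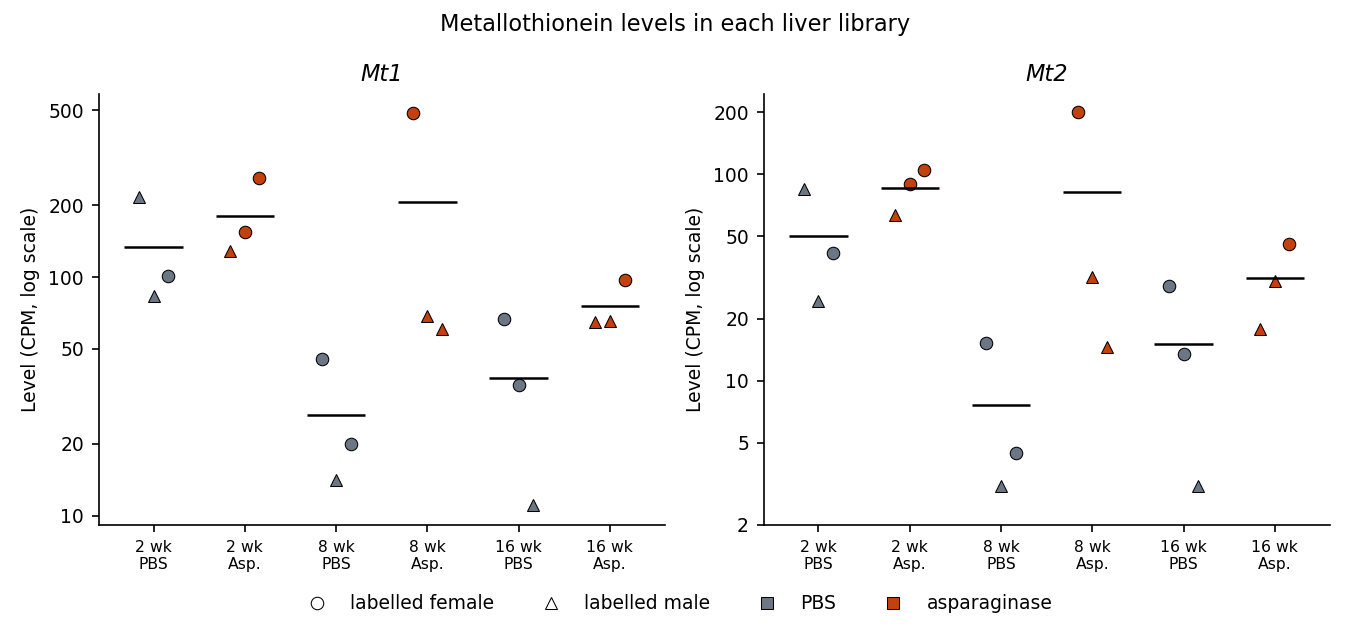
Level of Mt1 and Mt2 in each of the 18 liver libraries (CPM, log scale) by age and treatment; circles are labelled females, triangles labelled males, horizontal bars group means. In adults the controls of each sex lie below the treated livers of that sex, and 8-week asparaginase 1 is the highest library for both genes.

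Labelled sex ran through these values, and within each sex the adult groups separated. Among females at 8 weeks Mt1 measured 45.5 and 19.98 CPM with PBS, against 487 CPM with asparaginase, and at 16 weeks 66.6 and 35.3 CPM with PBS, against 97.2 CPM with asparaginase. Among males it measured 14.0 CPM with PBS, against 68.8 and 60.6 CPM with asparaginase at 8 weeks, and 11.0 against 64.9 and 65.3 CPM at 16 weeks. Treated livers were above controls of their sex in all 4 combinations of sex and adult age, and the same held for Mt2. Of all tested genes, 4.68% were higher in all 4 combinations and 6.33% were lower; no other member was. Each combination sets 1 or 2 livers against 1 or 2, so this is a description without a test.

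Adult males had less metallothionein transcript than adult females. The mean sex term at 8 and 16 weeks, male minus female, was a log2 difference of -1.73 for Mt1 (SE 0.39, adjusted p = 0.0154) and -2.13 for Mt2 (SE 0.48, adjusted p = 0.0144) with treatment held constant. These were 2 of 7 members called, where 12.9% of all tested genes were (8.02% as lower in males). The term leans on few livers: without 8-week asparaginase 1, the squamous-marked female, the adjusted p for Mt1 was 0.152, and without 16-week PBS 3, the only male of its group, it was 0.108. The transporters and Mtf1 gave log2 differences of 0.11 (Slc39a14), 0.21 (Slc39a4), 0.14 (Slc30a1), 0.47 (Slc30a10) and 0.22 (Mtf1) on the TMM scale, with adjusted p from 0.171 to 0.510. Scaled by library totals alone, all 5 took the opposite sign; that scaling moved the median of all genes to -0.53.

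The library with the highest metallothionein level was also the one with the most squamous transcripts. Squamous markers (13 genes, Krt5, Krt14 and Krt1 among them) summed to 829, 436 and 12.1 CPM in 8-week asparaginase 1, 2 and 3, where none of the 13 was at 0 across the group. In 8-week PBS livers the sum was 7.81, 2.35 and 2.75 CPM, with Krt1, Krt6a and Dsg3 at 0. The Mt1 level in these 3 treated livers was 487, 68.8 and 60.6 CPM. At 16 weeks the squamous sum was 1.79 to 2.59 CPM in treated livers, with Krt5, Krt1, Krt6a, Dsg3 and Krtdap at 0, and 1.92 to 18.1 CPM in controls. Skeletal muscle markers summed to 2460 CPM in 8-week asparaginase 1, against 162 to 382 CPM in the other treated livers and 336 to 925 CPM in the controls of that age. The part of these transcripts in the metallothionein result was not tested.

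The 8-week call depended on which libraries entered the fit. Without 8-week asparaginase 1 the log2 difference of Mt2 was 2.92 (adjusted p = 0.862, as for Mt1). Without both squamous-marked libraries, which leaves 1 treated liver at that age, it was 2.11 for Mt1 and 2.23 for Mt2, and both had an adjusted p of 1 (unadjusted 0.0336 and 0.0644). With each of the 18 libraries left out in turn, Mt1 and Mt2 were each called in 5 fits; the log2 difference stayed above 0 and ran from 2.21 to 3.90 for Mt1 and from 2.92 to 4.34 for Mt2. The calls were lost without 2-week PBS 2, 2-week asparaginase 2 or 3, 8-week PBS 1 or 3, or 8-week asparaginase 1 or 2. They were also lost without any 1 of the 6 libraries of 16 weeks. The fits that lost them called only 0 to 32 genes in all at 8 weeks, and those that kept them 79 to 398. Over the 18 fits the unadjusted edgeR p was at most 0.0149 for Mt1 and 0.0172 for Mt2. Fitted without the sex term, Mt1 was 2.96 (adjusted p = 0.119) and Mt2 3.43 (adjusted p = 0.131). The difference was thus above 0 in every fit run, while the adjusted p of the reported fit sat close to the threshold.

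**Figure D2:**
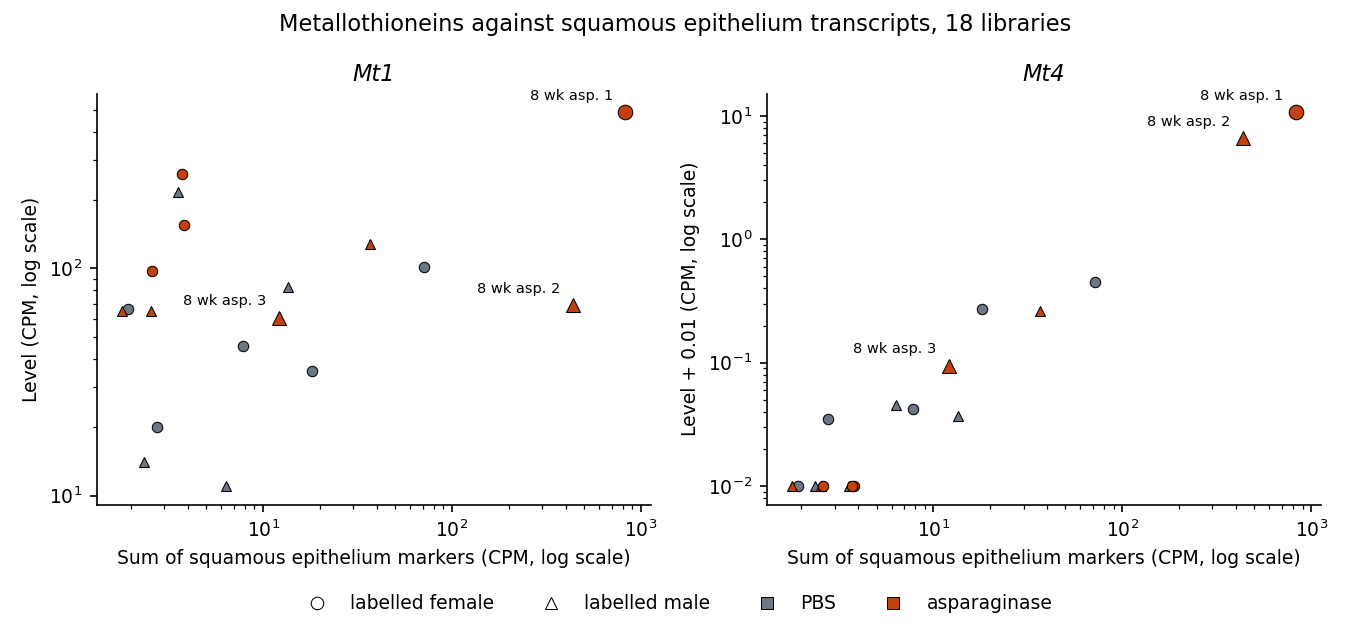
Level of Mt1 (left) and of Mt4 with 0.01 CPM added (right) against the summed level of 13 squamous epithelium markers, both in CPM on log scales, in 18 libraries; symbols as to sex and treatment. The 8-week asparaginase libraries are named: Mt4 is high in the 2 with high squamous sums, while Mt1 is high in 1 of them.

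**Figure D3:**
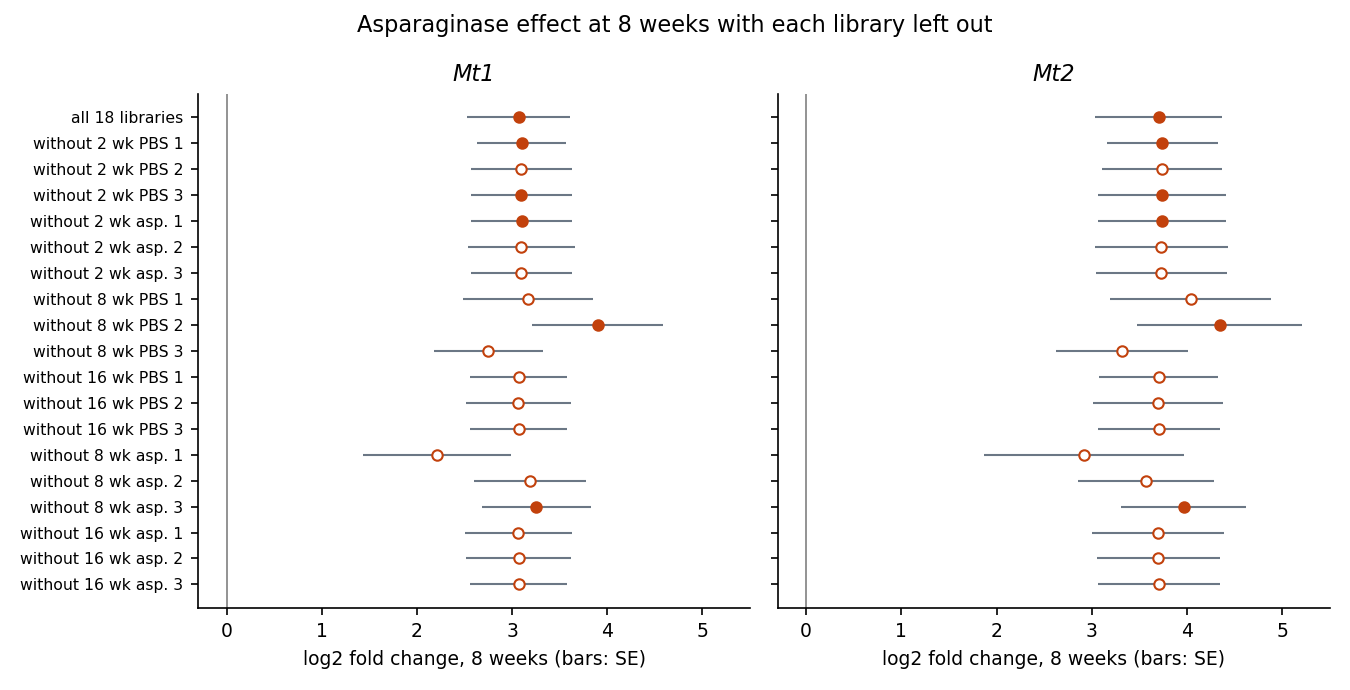
Log2 fold change of Mt1 and Mt2 at 8 weeks (asparaginase minus PBS; bars, SE) with all 18 libraries and with each left out; filled points had an adjusted p under 0.05 by edgeR. All points lie above 0, and 5 of the 18 reduced fits keep each call.

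Mt1 and Mt2 moved together from library to library. Their ratio (Mt1 over Mt2, in CPM) lay between 1.74 and 4.56, while their sum ranged from 14.1 CPM in 16-week PBS 3 to 687 CPM in 8-week asparaginase 1. They were also unusually variable within groups: the median within-group SD of the log2 level was 0.791 for Mt1 and 1.01 for Mt2, larger than that of 98.4% and 98.9% of 12970 genes. The SD was 0.397 for Slc30a10 and between 0.135 and 0.205 for the other members, against a median of 0.158 over all genes. Each group mixes the labelled sexes, and this SD was not adjusted for sex. The adult sex term was -1.73 for Mt1 and -2.13 for Mt2, and its part in the SD was not tested.

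The remaining metallothionein genes were at or near 0 outside 2 libraries. Mt3, known from brain, had 0 counts in 16 of 18 libraries and 2 and 3 counts in the other two. Mt4, known from stratified squamous epithelium, measured 10.7, 6.58 and 0.0847 CPM in 8-week asparaginase 1, 2 and 3 and at most 0.444 CPM elsewhere. Its 2 high libraries were the 2 with high squamous markers, and 16-week treated livers had 0 counts of it. The 8-week difference of Mt4 did not pass the test (adjusted p = 0.0702).

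Slc39a14, the main zinc and manganese importer of hepatocytes, averaged between 144 and 215 CPM in the 6 groups. At 8 weeks it measured 119, 159 and 154 CPM with PBS, against 180.5, 218 and 194 CPM with asparaginase. Every treated liver was above every control at this age. The log2 difference was 0.39 (SE 0.14, adjusted p = 0.188, unadjusted 0.0192). At 2 weeks it measured 197, 202 and 246 CPM with PBS, against 205, 237 and 179 CPM with asparaginase, and at 16 weeks 218, 181 and 204 CPM against 214.5, 197 and 207 CPM. Both pairs of groups overlapped, with log2 differences of -0.10 (SE 0.14) and 0.03 (SE 0.14).

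Slc39a4, the importer mutated in the zinc deficiency disease acrodermatitis enteropathica, was lower in treated livers than in controls at the younger ages without passing the test. At 8 weeks it measured 54.2, 50.7 and 46.2 CPM with PBS, against 18.8, 33.5 and 31.8 CPM with asparaginase. All 3 treated livers lay below all 3 controls. The log2 difference was -1.02 (SE 0.21, adjusted p = 0.0545, unadjusted 0.000264). At 2 weeks it measured 46.5, 42.4 and 37.8 CPM with PBS, against 27.3, 25.2 and 31.6 CPM with asparaginase, again without overlap, with a log2 difference of -0.56 (SE 0.20, adjusted p = 0.250, unadjusted 0.0148). It was the only member whose groups did not overlap at 2 weeks, where 16.7% of all genes had none. At 16 weeks the groups overlapped (29.6, 22.1 and 30.0 CPM with PBS, 19.6, 26.8 and 26.4 CPM with asparaginase), with a log2 difference of -0.17 (SE 0.19) that turned to 0.071 when scaled by library totals alone. The joint test of the difference between ages gave adjusted p = 0.489, unadjusted 0.0311. The 8-week difference was called by DESeq2 (adjusted p = 0.0001) and limma-voom (adjusted p = 0.0492). Leaving out 8-week asparaginase 1 brought it to -0.63. Intestinal markers, checked because gut epithelium expresses this gene, summed to 90.5 to 110 CPM in 8-week controls and 75.5 to 86.3 CPM in 8-week treated livers, with Lct, Sis and Alpi at 0 in both groups. At 2 weeks they summed to 57.9 to 75.8 CPM with PBS, against 82.9 to 140 CPM with asparaginase; their part in the result was not tested.

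Slc30a1, the plasma membrane zinc exporter, measured 21.3, 26.8 and 26.0 CPM with PBS, against 30.3, 36.7 and 31.8 CPM with asparaginase at 8 weeks. The treated livers were all above the controls. The log2 difference was 0.35 (SE 0.13, adjusted p = 0.188, unadjusted 0.019). At 2 weeks the levels were 27.6, 24.3 and 23.6 CPM against 27.3, 27.1 and 32.5 CPM, and at 16 weeks 31.8, 31.6 and 38.5 CPM against 33.9, 40.5 and 39.2 CPM. Both pairs overlapped, and the log2 differences were 0.20 (SE 0.13) and 0.13 (SE 0.13).

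Slc30a10, the manganese exporter whose loss causes manganese overload, gave the largest negative value of the 7 at 8 weeks, short of the threshold. It measured 21.2, 28.0 and 30.4 CPM with PBS, against 6.58, 17.8 and 18.3 CPM with asparaginase. The treated livers were all below the controls, and 8-week asparaginase 1 was the lowest of the 18 libraries. The log2 difference was -1.29 (SE 0.33, adjusted p = 0.0750, unadjusted 0.00173), and -0.62 without 8-week asparaginase 1. DESeq2 called it (adjusted p = 0.00134). At 2 weeks it measured 10.6, 18.4 and 22.4 CPM with PBS, against 10.3, 17.8 and 13.4 CPM with asparaginase (log2 difference -0.51, SE 0.30). At 16 weeks it measured 18.9, 11.9 and 20.6 CPM with PBS, against 18.3, 15.8 and 18.2 CPM with asparaginase (log2 difference -0.01, SE 0.29; 0.24 by library totals alone). The difference between ages did not pass the joint test (adjusted p = 0.501, unadjusted 0.0383).

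Mtf1, the zinc sensor, did not pass the test at any age. Its levels at 8 weeks were 10.5, 18.3 and 16.6 CPM with PBS, against 14.5, 18.4 and 17.7 CPM with asparaginase, with a log2 difference of 0.03 (SE 0.15), which was -0.055 without the 2 squamous-marked libraries. At 2 weeks they were 13.2, 10.6 and 11.9 CPM against 11.6, 10.8 and 11.2 CPM (log2 difference -0.06, SE 0.15). At 16 weeks they were 14.9, 16.5 and 17.6 CPM against 13.5, 15.6 and 14.7 CPM (log2 difference -0.18, SE 0.15; 0.064 by library totals alone). In all, treated and control livers did not overlap for 5 of 7 members at 8 weeks (Mt1, Slc39a14 and Slc30a1 higher, Slc39a4 and Slc30a10 lower), where 15.9% of all tested genes had no overlap. At 16 weeks they did not overlap for 0 of 7, where 19.7% of all genes had no overlap. At 8 weeks Kupffer cell markers (233 to 292 CPM with asparaginase, 310 to 577 with PBS) and erythroid markers (248 to 305 against 507 to 552) also did not overlap, and their part in these values was not tested.

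**Figure D4:**
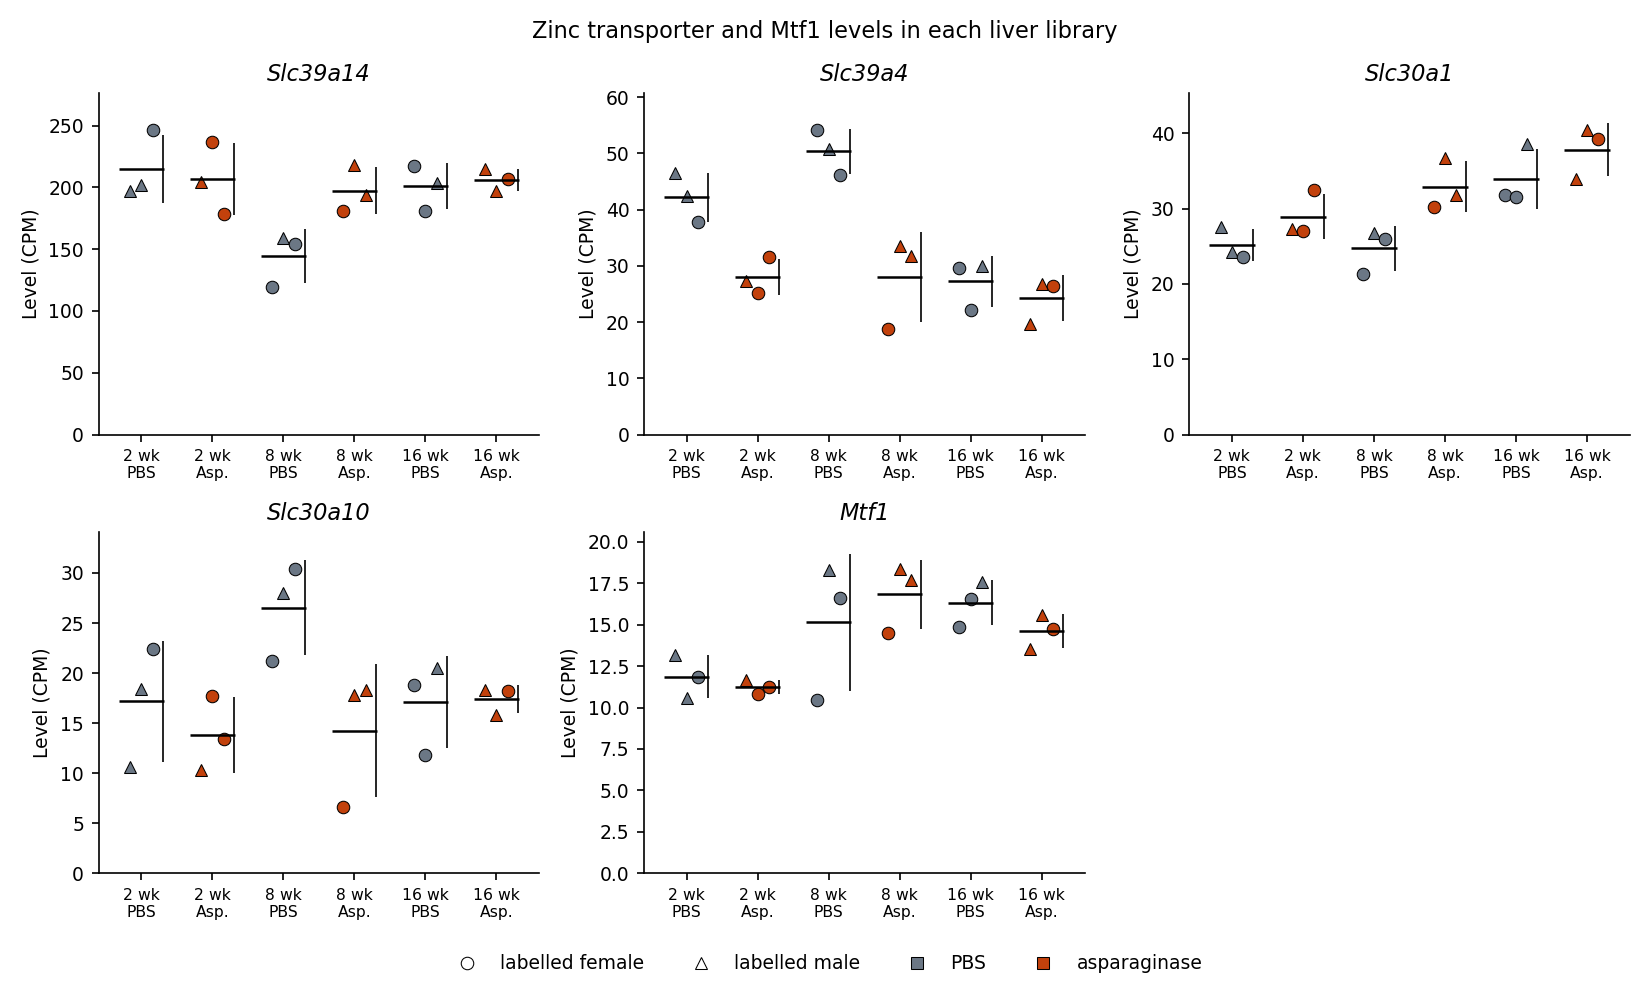
Level (CPM) of the 4 transporters and Mtf1 in each library by age and treatment. Circles are labelled females, triangles labelled males, horizontal bars means and vertical bars 1 SD (n = 3). At 8 weeks the treated livers lie apart from the controls for Slc39a14, Slc39a4, Slc30a1 and Slc30a10, and overlap them for Mtf1.

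In control livers both metallothioneins were far lower in adults than at 2 weeks. Mt1 averaged 134 ± 72.8 CPM (SD, n = 3) at 2 weeks, 26.5 ± 16.7 at 8 weeks and 37.7 ± 27.9 at 16 weeks; Mt2 averaged 50.3 ± 31.3, 7.62 ± 6.69 and 15.1 ± 12.9 CPM. Every 2-week control was above every 8-week control for both genes. Markers of other cells also differed between these controls without overlap, from 2 to 8 weeks: erythroid (569 to 1590 against 507 to 552 CPM), neutrophil (5.54 to 14.3 against 0.696 to 3.03), acinar (15.1 to 89.9 against 9.64 to 10.8), muscle (22.0 to 314 against 336 to 925) and intestinal (57.9 to 75.8 against 90.5 to 110). Their part in the age differences was not tested. Between 2 and 8 weeks Mt1 fell by 2.76 on the log2 scale (SE 0.55, adjusted p = 0.00254) and Mt2 by 3.36 (SE 0.67, adjusted p = 0.00259), both by edgeR. Both stayed called whichever library was left out. The fit took sex from the labels, although 2-week PBS 1 and 2, labelled male, held both Xist and Y-linked transcripts. Slc39a14 fell by 0.57 (SE 0.14, adjusted p = 0.00888), from 215 ± 27.3 to 144 ± 21.7 CPM, a call lost without 2-week PBS 3 or 8-week PBS 2. These were 3 of 7 members called, where 31.7% of all tested genes were (16.9% as lower). The log2 differences of Slc39a4 (0.35), Slc30a10 (0.71) and Mtf1 (0.41) did not pass the test (adjusted p = 0.184, 0.082 and 0.0527); those of Slc39a4 and Mtf1 turned negative when scaled by library totals alone (-0.37 and -0.29). That of Slc30a1 was 0.00 (SE 0.13), and -0.70 by library totals. The ages did not overlap for 3 of 7 members (Mt1, Mt2 and Slc39a14), where 35.0% of all genes had no overlap.

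From 2 to 16 weeks, 5 of 7 members were called, where 27.8% of all tested genes were. Mt1 fell by 2.32 (SE 0.56, adjusted p = 0.00909, edgeR) and Mt2 by 2.40 (SE 0.67, adjusted p = 0.0181). The importer Slc39a4 fell by 0.61 (SE 0.19, adjusted p = 0.0293), from 42.2 ± 4.36 to 27.2 ± 4.48 CPM. Slc30a1 rose by 0.45 (SE 0.13, adjusted p = 0.0210) and Mtf1 by 0.48 (SE 0.15, adjusted p = 0.0303), but both differences changed sign when scaled by library totals alone (-0.34 and -0.31), under which the median of all genes moved to -0.80. Slc39a14 (-0.12, SE 0.14) and Slc30a10 (-0.06, SE 0.29) were not called. The Mt1 call was lost without 16-week PBS 3 and the Mt2 call without that library, 16-week PBS 2 or 2-week PBS 3. The Slc30a1 call was lost without 16-week PBS 3, 2-week PBS 2 or 2-week PBS 3, and those of Slc39a4 and Mtf1 were kept in 13 and 11 of the 18 reduced fits. With the sex term kept in adults only, 5 members were called with all libraries. With that same term and without the 3 libraries that held both sexes, Mt1 alone was called (log2 difference -1.90, adjusted p = 0.0476); this leaves 1 control at 2 weeks, which the fit assumes to vary like the other groups. The ages did not overlap for 4 of 7 members (Mt1 and Slc39a4 lower, Slc30a1 and Mtf1 higher), where 39.7% of all genes had no overlap.

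Between 8 and 16 weeks 0 of 7 members were called, where 0.413% of all tested genes were. Slc39a4 came closest, with a log2 difference of -0.96 (SE 0.19, adjusted p = 0.0519, unadjusted 0.000252). Every 16-week control was below every 8-week control for it (22.1 to 30.0 against 46.2 to 54.2 CPM). Slc30a10 was also lower without overlap (log2 difference -0.77, SE 0.29, adjusted p = 0.242), and Slc39a14 (0.45, SE 0.14, adjusted p = 0.156) and Slc30a1 (0.44, SE 0.13, adjusted p = 0.134) were higher without overlap. That made 4 of 7 members without overlap, where 16.3% of all genes had none. The 8-week controls are shared by this comparison and the 8-week treatment comparison, so the comparisons are not independent. Side by side, 16-week minus 8-week controls and 8-week treated minus control livers gave 0.44 and 3.07 for Mt1, 0.96 and 3.70 for Mt2, 0.45 and 0.39 for Slc39a14, and -0.96 and -1.02 for Slc39a4. They gave 0.44 and 0.35 for Slc30a1, -0.77 and -1.29 for Slc30a10, and 0.07 and 0.03 for Mtf1. Nothing is read from their likeness, since a low or high set of shared controls moves both.

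**Figure D5:**
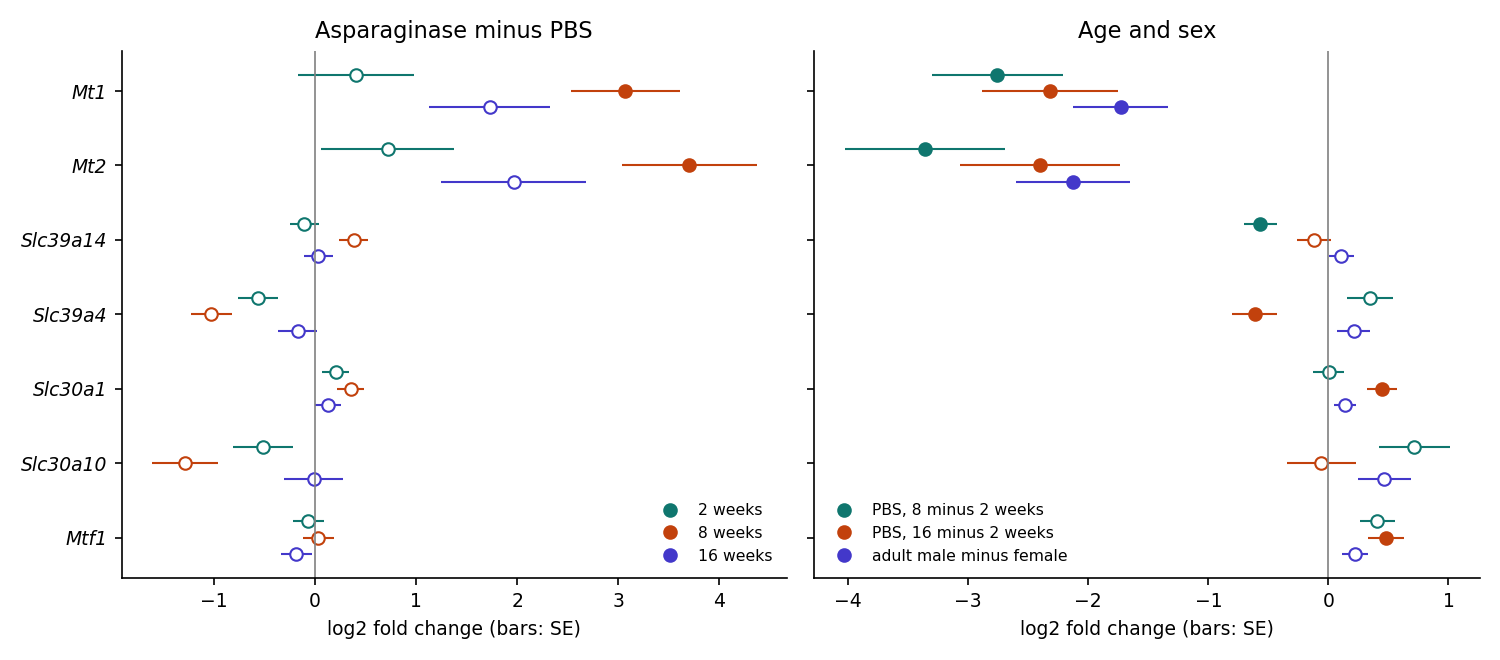
Log2 fold change (bars, SE) of the 7 members between asparaginase and PBS at each age (left) and between control ages and adult sexes (right); filled points had an adjusted p under 0.05 by edgeR. At left only Mt1 and Mt2 at 8 weeks are filled; at right Mt1 and Mt2 are filled in all 3 comparisons, and the filled Slc30a1 and Mtf1 points change sign under library totals alone (-0.34 and -0.31).

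None of the other zinc genes tested here was called with asparaginase. At 2, 8 and 16 weeks 0.432, 0.364 and 0.234% of all tested genes were called. At such shares 0 calls in a short list do not stand apart from other genes. Of the 12 other ZIP importers 11 were tested, and 0 passed at 2, 8 or 16 weeks by edgeR (0, 1 and 1 at an unadjusted p under 0.05), with median log2 differences of 0.03, -0.06 and -0.01. Of the 8 other ZnT exporters 7 were tested, and 0 passed (2, 1 and 1 unadjusted), with medians of 0.05, -0.03 and 0.00. The medians of all genes were -0.01, 0.01 and 0.00. The 6 other genes named as MTF1 targets (Selenoh, Selenow, Csrp1, Ndrg1, Gclc and Slc39a10) also gave 0 calls at each age (1, 1 and 0 unadjusted). Slc39a10 is counted among the ZIP importers as well, so these lists are not separate. Slc30a2, an exporter that loads zinc into secretory vesicles and is abundant in pancreas, had the smallest p of the ZnT list at 2 weeks: it measured 0.0592, 0.108 and 0 CPM with PBS, against 0.581, 0.847 and 0.132 CPM with asparaginase. At 8 weeks it measured 0.191, 0.0331 and 0.0499 CPM with PBS, against 0.346, 0.342 and 0.763 CPM with asparaginase. At 16 weeks it measured 0.0599, 0.175 and 0.07 CPM with PBS, against 0.176, 0.268 and 0.63 CPM with asparaginase. The treated livers were higher at this very low level, with log2 differences of 3.39, 2.32 and 2.15 at 2, 8 and 16 weeks. None passed the edgeR test (adjusted p = 0.137, 0.194 and 0.393). Acinar markers summed to 15.1 to 89.9 CPM in the 2-week controls and 364 to 1040 CPM in the 2-week treated livers. At 8 weeks they summed to 9.64 to 10.8 CPM with PBS, against 120, 9.06 and 12.3 CPM with asparaginase. At 16 weeks they summed to 12.2 to 357 CPM with PBS, against 12.6 to 2330 CPM with asparaginase. Their part was not tested.

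With age and sex some of these relatives were called, at shares to be read against those of all genes: 31.7% from 2 to 8 weeks, 27.8% from 2 to 16 weeks and 12.9% for sex. Slc39a5, a basolateral zinc importer, fell in controls by 2.03 on the log2 scale from 2 to 8 weeks (SE 0.40, adjusted p = 0.00246) and by 4.05 from 2 to 16 weeks (SE 0.46, adjusted p = 6.4e-05). It measured 8.53, 7.95 and 10.5 CPM at 2 weeks, 4.56, 1.69 and 2.90 CPM at 8 weeks and 0.749, 0.964 and 0.560 CPM at 16 weeks, with no overlap between the ages. Slc39a11 rose by 0.86 (adjusted p = 0.000419) at 8 weeks and by 0.71 (adjusted p = 0.00135) at 16 weeks against 2 weeks, values that were 0.15 and -0.074 by library totals alone. Slc39a8, another zinc and manganese importer, fell by 0.38 at 16 weeks (adjusted p = 0.0161). These were 2 of 11 ZIP genes called from 2 to 8 weeks and 3 of 11 from 2 to 16 weeks. Among the exporters Slc30a3 fell by 2.39 (adjusted p = 0.00363) at 8 weeks and fell by 1.71 (adjusted p = 0.016) at 16 weeks, at levels of at most 1.86 CPM, and Slc30a9 rose by 0.28 at 16 weeks (adjusted p = 0.0223), which turned to -0.52 by library totals alone. Of the other MTF1 targets, Csrp1 fell by 1.06 and fell by 1.00, and Selenoh fell by 1.05 and fell by 1.21, whereas Selenow rose by 1.03 and 0.89, at 8 and 16 weeks against 2 weeks (adjusted p from 0.000196 to 0.0118). By library totals alone the Selenow values were 0.30 and 0.10. Gclc rose by 0.50 at 8 weeks (adjusted p = 0.0244), which turned to -0.21 by library totals, and Ndrg1 fell by 0.76 at 16 weeks (adjusted p = 0.0168). Of the 6 targets, 2 rose and 2 fell by 8 weeks, and 1 rose and 3 fell by 16 weeks.

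For sex, 2 of 11 ZIP genes were called, both lower in adult males: Slc39a5 (log2 difference -1.97, SE 0.33, adjusted p = 0.00285) and Slc39a3 (-0.22, adjusted p = 0.0495). Of 7 ZnT genes 2 were called, both higher in males on the TMM scale: Slc30a5 (0.53, adjusted p = 0.0064) and Slc30a9 (0.19, adjusted p = 0.0465); by library totals alone these were 0.011 and -0.32. Of the 6 other MTF1 targets, Csrp1 (-0.75, adjusted p = 0.000671) and Ndrg1 (-0.54, adjusted p = 0.0389) were lower in males. Gclc was higher on the TMM scale (0.42, adjusted p = 0.0253) and -0.088 by library totals alone.

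Genes of other pathways known to touch metallothioneins were read in the same fit, in which asparaginase called 0.432, 0.364 and 0.234% of all genes at 2, 8 and 16 weeks (2043, 2989 and 1842 of 16213 at an unadjusted p under 0.05). At such shares a short list with 0 calls does not stand apart from other genes. Of 10 glucocorticoid-induced genes 0 were called at any age (1, 2 and 2 unadjusted), and of 14 NRF2 targets, the antioxidant programme, 0 were called (0, 3 and 1 unadjusted). Of 26 acute phase genes, the liver's IL-6 programme, 0 were called at 2 weeks, 1 at 8 weeks (Il1rn, log2 difference 1.59, adjusted p = 0.0398) and 2 at 16 weeks (Serpina3n, 1.37, adjusted p = 0.0014; Itih4, 0.89, adjusted p = 0.0188), with 6, 2 and 13 of 26 at an unadjusted p under 0.05. Their median log2 difference was 0.03, -0.14 and 0.58. Of 15 ATF4 targets, the amino acid response, 5, 5 and 6 rose and 0 fell, with medians of 1.00, 1.00 and 2.01. Asns, among them, rose by 2.85 (SE 0.22) at 2 weeks, 1.80 (SE 0.24) at 8 weeks and 4.27 (SE 0.26) at 16 weeks. The age at which Mt1 and Mt2 were called was thus the one with the smallest Asns value; Asns was not among the genes called by the joint test of ages, which called 0. Of 10 copper genes and 4 further manganese genes 0 were called with asparaginase.

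Across the 18 libraries, which share groups, sexes and depth, the log2 levels of Mt1 and Mt2 had a Pearson correlation of 0.982, given as a description. Slc30a10 ran opposite to both (-0.739 with Mt1 and -0.738 with Mt2). The next strongest pairs among members were Slc30a1 with Slc39a4 (-0.585), Mtf1 with Slc30a1 (0.57) and Slc30a10 with Slc39a4 (0.556). Among 11872 genes with a mean of at least 1 CPM, the nearest to Mt1 after Mt2 were Eda (0.900), Ccdc163 (0.866) and Armc10 (0.861), and the same 3 were nearest to Mt2 after Mt1. Nearest to Slc39a14 were Kmt5b (0.870), Foxo1 (0.858), Txlng (0.845) and Qtrt2 (0.838), and to Slc39a4 Prdx1 (0.842), Rab11a (0.836), Ndufab1 (0.831) and Ndufa8 (0.804). Nearest to Slc30a1 were Ubr2 (0.944), Gfra1 (0.846), Ncoa2 (0.845) and Arhgap32 (0.844), and to Slc30a10 Mal2 (0.870), Tmie (0.832), Uba1 (0.806) and Asb13 (0.802). Nearest to Mtf1 were Xpo7 (0.948), C1galt1 (0.934), Ahcyl1 (0.933) and Mtmr9 (0.929).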

How the data were processed

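Liver RNA-seq of 18 libraries was used as gene counts that the authors deposited in 1 table (37315 genes, 25426 with a count). The tools listed per the submitters' processing notes are TopHat, TopHat2 2.0.9 and DESeq2, and the builds mm10 and GRCm38, with no roles; no source used here names the read counter or says whether it used strand. Of the gene IDs, 35533 matched GENCODE M21, which gave names and positions; promoters came from RefSeq.

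Genes were filtered (filterByExpr, minimum count 10, total 15), scaled by TMM and tested with edgeR 4.0.16 quasi-likelihood in 1 fit over all libraries, with 1 term per group and labelled sex within each age (9 residual degrees of freedom). P-values were adjusted by Benjamini-Hochberg over 16213 genes per comparison, and called under 0.05. The code was tested on simulated data. DESeq2 1.42.0, limma-voom (limma 3.58.1), other scalings, filters and sex terms, and each library left out were alternatives; 2 more sets of libraries were left out after the data were seen. All 7 members are named in each comparison; from each other list at most the 3 genes with the smallest p, or genes that were called, may be named, and others appear as counts; for likeness the 4 nearest genes on log2(CPM + 0.5) scale. Members and lists were chosen with earlier results of these data known. No 2 library columns were identical. Of 204 list entries 203 matched a gene.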

Additional observations from a re-analysis of the deposited data

How the results depend on the processing

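Of the members, 2 were called at 8 weeks in the reported fit, 4 with DESeq2, 5 with scaling by library totals only, 4 with no filter on low counts, and 0 without the sex term or without the 2 squamous-marked libraries; with sex as a term in adults only it was 3 with all libraries and 0 without the 3 that held both sexes (both sets of libraries were left out after the data were seen, and where 1 sample remains in a group it is assumed to vary like the others); leaving out 1 library gave 0 to 4, with 0 in 13 of 18. From 2 to 16 weeks in controls the count was 5, and 2 without the sex term, 5 with sex in adults only, 1 with that term and without the 3 mixed libraries, and 0 to 5 with 1 library left out. From 2 to 8 weeks it was 3 (2 to 4 with 1 left out). From 8 to 16 weeks it was 0, and 2 with DESeq2, 1 with library totals, 1 with no filter and 0 to 1 with 1 left out. For sex it was 2, and 4 with library totals, 0 without the squamous-marked libraries and 0 to 3 with 1 left out. At 2 and 16 weeks and for the joint test it was 0 in every setting run. Where a fit has fewer libraries or no sex term, that is its own construction; otherwise the cause was not tested.

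Library totals moved the median of all genes to 0.37 at 8 weeks, 0.25 at 16 weeks, -0.72, -0.80 and -0.07 for the age comparisons (8 against 2, 16 against 2 and 16 against 8 weeks) and -0.53 for sex, and reversed these log2 values: at 16 weeks Slc39a4 0.071, Slc30a10 0.24 and Mtf1 0.064; in controls from 2 to 8 weeks Slc39a4 -0.37, Slc30a1 -0.70 and Mtf1 -0.29; from 2 to 16 weeks Slc30a1 -0.34 and Mtf1 -0.31; from 8 to 16 weeks Mtf1 -0.022; and for sex Slc39a14 -0.41, Slc39a4 -0.30, Slc30a1 -0.37, Slc30a10 -0.048 and Mtf1 -0.29. Others reversed around 0: Slc30a10 at 16 weeks without the sex term (0.030) and from 2 to 16 weeks with sex in adults only (0.011), Slc30a1 from 2 to 8 weeks without the sex term (-0.026), with DESeq2 (-0.000077) and with RLE factors (-0.000504), and Mtf1 at 8 weeks without the squamous-marked libraries (-0.055). With 1 library left out, reversals lay in these ranges: at 2 weeks Mt1 -0.25 to 1.03 and Slc39a14 -0.25 to 0.011; at 8 weeks Mtf1 -0.10 to 0.21; at 16 weeks Slc30a10 -0.27 to 0.24, Slc39a14 -0.026 to 0.089, Slc39a4 -0.37 to 0.030 and Slc30a1 -0.054 to 0.31; in controls Slc30a1 -0.13 to 0.073 (2 to 8 weeks), Slc30a10 -0.28 to 0.16 (2 to 16 weeks) and Mtf1 -0.088 to 0.27 (8 to 16 weeks).

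Over all genes edgeR called 70, 59 and 38 at 2, 8 and 16 weeks, DESeq2 432, 659 and 322, limma-voom 169, 53 and 38, library totals 27, 3111 and 178, and the fit without sex 6, 2 and 19. In controls from 2 to 8, 2 to 16 and 8 to 16 weeks edgeR called 5137, 4501 and 67. For these DESeq2 called 5085, 4571 and 550, library totals 11939, 12319 and 41, and the fit without sex 3573, 3103 and 55. With no filter on low counts, 445 of 25426 genes were called at 8 weeks and 171 from 8 to 16 weeks. No paired analysis was possible because replicate numbers follow deposition order and pair no mice. Groups of 3 limit the precision, and with 3 against 3 libraries a permutation test of 1 gene cannot go below 0.10; Mt2 had as few as 88 counts in a control library.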
